A study of Homo sapiens with 12 samples.

Results

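The genes described here are the FOX, SOX, TBX and GATA transcription factors measured in SK-N-BE(2), a cell line from a neuroblastoma that carries MYCN amplification. They were chosen by gene symbol, with earlier results of these data known. The choice took every FOX, SOX, TBX or GATA family symbol with a number in the probe annotation other than FOXM1, SOX11, TBX3 and GATA3. These genes number 77 of the 14884 genes tested. They comprise 42 FOX, 18 SOX, 12 TBX and 5 GATA genes. Each gene is represented by 1 transcript cluster, the set of probes that the array assigns to 1 transcribed locus. The cells had been treated for 6 h with 1 µM JQ1 and 10 nM panobinostat together (called the combination below), with 10 nM panobinostat alone, with 1 µM JQ1 alone or with vehicle. All 4 groups were the same line grown in medium with fetal calf serum, and each had 3 arrays, 12 in all, hybridised with material labelled from total RNA. JQ1 displaces the BET bromodomain proteins from acetylated histones, and panobinostat inhibits histone deacetylases, so the comparisons ask how each compound and the pair alter transcript levels. This is a single line at a single time and dose, and nothing in the labels tells whether the 3 samples of a group came from different cultures. The p-values therefore reflect sample-to-sample spread that could be purely technical.

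These families set cell identity during development. FOX factors bind DNA through a forkhead domain, SOX factors through a high-mobility-group domain that bends DNA, TBX factors through a T-box and GATA factors through zinc fingers that read the bases of their name. In the neural crest, from which neuroblastoma arises, SOX9, SOX10 and FOXD3 act early and GATA2 and GATA3 act in the sympathetic neurons that form later, while the FOXO factors carry growth factor and stress signals to cell cycle arrest and cell death genes. TBX2 and GATA3 are among the factors known to maintain the adrenergic state of neuroblastoma cells.

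Values are deposited signals taken as log2, since they run from 1.39 to 14.10. They carry no detection call, and the signals of different clusters are not a comparison of transcript amounts. Arrays of a group correlated at 0.991 to 0.995 over all genes, and array medians lay between 6.12 and 6.29. Vehicle replicate 1 and panobinostat replicate 1 lay farthest from their groups, with root mean square deviations of 0.160 and 0.156, against 0.111 for the closest array. All 8 measured adrenergic neuroblast markers had signals at or above that of the median gene (7.24). Of the 8 measured mesenchymal markers 4 reached that level, LUM and SNAI2 among them, as did 2 of 5 Schwann cell markers. None of the 6 endothelial, leukocyte or epithelial markers did. Reaching that level therefore does not by itself identify the cell type. In a culture of 1 line, a change in the share of cells in some state and a change in RNA per cell cannot be told apart.

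The combination altered the most factors and moved 3 of them by a log2 of at least 1: SOX9 was 2.12-fold higher than with vehicle, GATA2 2.04-fold lower and TBX22 2.37-fold lower. With the combination 9 of the 77 factors were higher and 11 lower than with vehicle (limma, adjusted p under 0.05), 26.0% of the factors, against 37.7% of all genes called, 18.2% higher and 19.5% lower. With panobinostat 12 were higher and 5 lower, 22.1% of the factors, against 29.3% of all genes, 14.5% higher and 14.8% lower. With JQ1 5 were higher and 6 lower, 14.3% of the factors, against 17.6% of all genes, 8.18% higher and 9.47% lower. In none of the 3 comparisons did the factors' share exceed that of all genes. The median log2 change of the factors was 0.04 with the combination, 0.06 with panobinostat and 0.02 with JQ1, and that of all genes 0.03, 0.03 and 0.01. Leaving out JQ1 replicate 2 reduced the JQ1 count to 7, as did leaving out vehicle replicate 1 and panobinostat replicate 1 together, an alternative chosen after seeing the data. Centring each array on its median changed the JQ1 split to 5 higher and 4 lower. The panobinostat split became 9 higher and 5 lower with that centring and 8 and 5 with adjustment over all clusters. It became 7 higher and 5 lower with vehicle replicate 1 and panobinostat replicate 1 left out together.

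**Figure D1:**
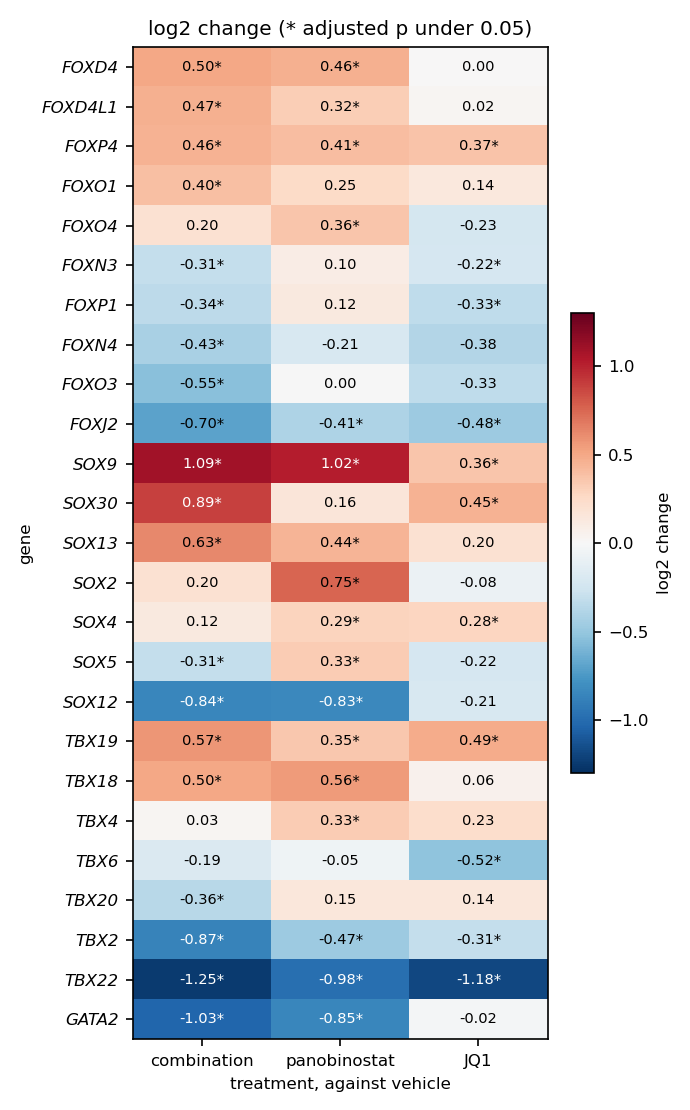
Log2 change from vehicle (colour and printed value) of the 25 factors called in at least 1 of the 3 comparisons with vehicle, rows ordered by family and by the change with the combination, columns by treatment, a star marking an adjusted p under 0.05. SOX9 has the highest value and TBX22 the lowest, and SOX5 is the row with stars of opposite colour.

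Over the 3 comparisons with vehicle 25 factors were called at least once and 52 never. FOXP4, SOX9 and TBX19 were higher in all 3, and FOXJ2, TBX2 and TBX22 were lower in all 3. SOX5 was the factor called in opposite directions, higher with panobinostat and lower with the combination. The matching counts across the 3 comparisons were not taken over all genes. By family, called genes with the combination were 9 of 42 FOX, 5 of 18 SOX, 5 of 12 TBX and 1 of 5 GATA genes. With panobinostat they were 5, 6, 5 and 1, and with JQ1 4, 3, 4 and 0. The shares of all genes called were 37.7%, 29.3% and 17.6%.

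Whether a factor was called went with its signal. Among the 29 factors at or above the median gene's signal 44.8% were called with the combination, 41.4% with panobinostat and 27.6% with JQ1, against 58.3%, 45.3% and 27.9% of all genes that bright. Among the 48 dimmer factors 14.6%, 10.4% and 6.25% were called, against 17.2%, 13.3% and 7.44% of all dimmer genes. The pooled SD within groups had a median of 0.142 over the factors and 0.133 over all genes.

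**Figure D2:**
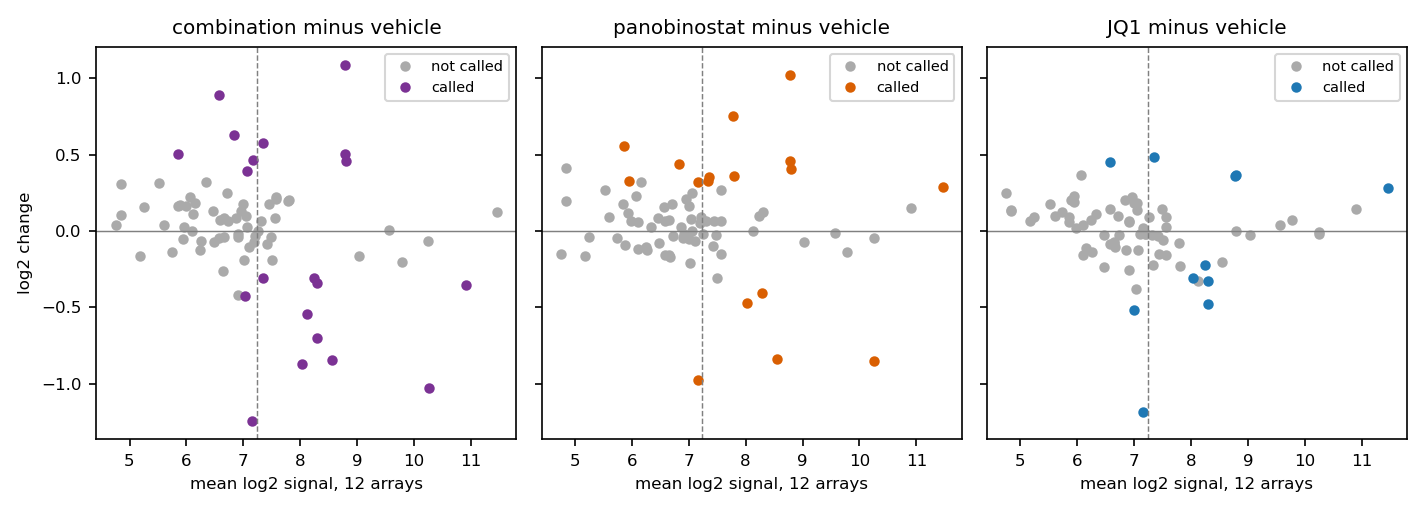
Log2 change from vehicle (y axis) against mean log2 signal over the 12 arrays (x axis) for the 77 factors, 1 panel per treatment, with called factors coloured and the median gene's signal of 7.24 as a dashed line. In each panel the called factors are a larger share of the points right of the line than left of it.

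The stretches upstream of the transcription starts are shown for GATA2, SOX12, SOX2 and TBX20, to give the sequence context of genes that moved. Other factors that moved, TBX22 among them, were held by the promoter table and are not shown. The stretches shown are the 250 bases before each start, from RefSeq on GRCh38.p14, 5′ to 3′ on the gene's strand. Capitals mark the GC box GGGCGG and the CCAAT box on either strand. GATA2 has a start preceded by chr3:128488531-128488780 (minus strand) and another preceded by chr3:128493202-128493451 (minus strand), and SOX12 lies at chr20:325302-325551 (plus), SOX2 at chr3:181711675-181711924 (plus) and TBX20 at chr7:35254101-35254350 (minus).
GATA2, first start: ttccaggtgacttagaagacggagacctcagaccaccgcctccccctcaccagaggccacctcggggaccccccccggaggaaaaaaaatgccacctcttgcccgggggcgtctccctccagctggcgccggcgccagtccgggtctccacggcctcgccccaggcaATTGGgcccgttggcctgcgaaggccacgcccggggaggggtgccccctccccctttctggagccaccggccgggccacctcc
GATA2, second start: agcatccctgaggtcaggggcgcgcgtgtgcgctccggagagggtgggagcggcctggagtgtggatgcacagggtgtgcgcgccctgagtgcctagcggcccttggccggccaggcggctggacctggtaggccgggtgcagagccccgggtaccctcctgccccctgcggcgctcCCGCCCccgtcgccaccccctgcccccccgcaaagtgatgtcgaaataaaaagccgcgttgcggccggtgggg
SOX12: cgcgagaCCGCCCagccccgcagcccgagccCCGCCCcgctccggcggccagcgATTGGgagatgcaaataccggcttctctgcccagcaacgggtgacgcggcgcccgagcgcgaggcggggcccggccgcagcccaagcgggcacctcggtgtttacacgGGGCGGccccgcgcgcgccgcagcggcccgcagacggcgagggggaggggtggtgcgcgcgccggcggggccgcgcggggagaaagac
SOX2: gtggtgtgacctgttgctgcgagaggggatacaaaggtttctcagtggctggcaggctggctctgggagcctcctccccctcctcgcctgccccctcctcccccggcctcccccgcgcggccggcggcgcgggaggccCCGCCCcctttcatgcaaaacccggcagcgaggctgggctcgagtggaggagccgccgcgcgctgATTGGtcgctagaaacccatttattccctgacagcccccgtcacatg
TBX20: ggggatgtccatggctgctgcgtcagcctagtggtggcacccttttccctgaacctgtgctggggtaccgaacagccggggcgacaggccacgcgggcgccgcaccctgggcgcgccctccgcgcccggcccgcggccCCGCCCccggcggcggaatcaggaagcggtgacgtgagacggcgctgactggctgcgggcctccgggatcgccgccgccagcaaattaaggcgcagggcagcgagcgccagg
All 5 stretches are rich in G and C, from 68.8% in SOX2 to 79.2% in SOX12. SOX12 holds 3 GC boxes, 238, 214 and 83 bases before its start, and 1 CCAAT box 192 bases before it. SOX2 and TBX20 each hold a GC box 107 bases before the start, and SOX2 also holds a CCAAT box 43 bases before it. Of the GATA2 starts, the first has a CCAAT box 79 bases before it and no GC box, and the second a GC box at 68 bases. None of the 5 holds CACGTG, the E-box that MYC family proteins bind.

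The promoter table held 57 of the 77 factors with 76 starts, and SOX9 and TBX2 are not among them. Searched on both strands of the 250 bases before each start, GGGCGG was present at 53.95% of these starts, against 42.64% of the 35116 starts in the table. CCAAT was present at 28.95%, against 32.01%, and CACGTG at 5.26%, against 6.34%. The families have short motifs of their own. The GATA site AGATAA was present at 5.26% of the factors' starts and 9.17% of all starts. The SOX site AACAAT was present at 10.53% and 8.98%. Forkhead sites spelled TGTTTAC were present at 3.95% and 2.98%, and T-box sites spelled AGGTGTGA at 1.32% and 0.79%. TATAAA was present at 10.53% against 10.72%. Median G and C content was 64.8% at the factors' starts and 58.0% over the table. These motif matches are descriptions of the letters and say nothing of binding in these cells.

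Among the GATA factors the change lay in GATA2, a regulator of blood stem cells and of sympathetic neurons. GATA2 read 9.83, 9.62 and 9.65 with the combination, 9.89, 9.79 and 9.95 with panobinostat and 10.76, 10.69 and 10.67 with JQ1, against 10.65, 10.77 and 10.76 with vehicle. Both panobinostat-containing groups lay below all JQ1 and vehicle arrays, while the JQ1 and vehicle arrays overlapped. With the combination GATA2 fell by 1.03 ± 0.08 (log2 change ± SE, as for all changes here, n = 3 arrays per group, limma adjusted p = 9.27e-07) and with panobinostat by 0.85 ± 0.08 (adjusted p = 1.17e-05), 1.80-fold. With JQ1 the difference was -0.02 ± 0.08 (adjusted p = 0.904). The combination did not pass the test against panobinostat alone, at -0.18 ± 0.08 (adjusted p = 0.151). None of the other 4 GATA genes was called in any comparison with vehicle. GATA4 and GATA6, regulators of heart and endoderm, differed by -0.42 and 0.00 with the combination, GATA1, the red cell factor, by -0.03 and GATA5 by 0.03.

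**Figure D3:**
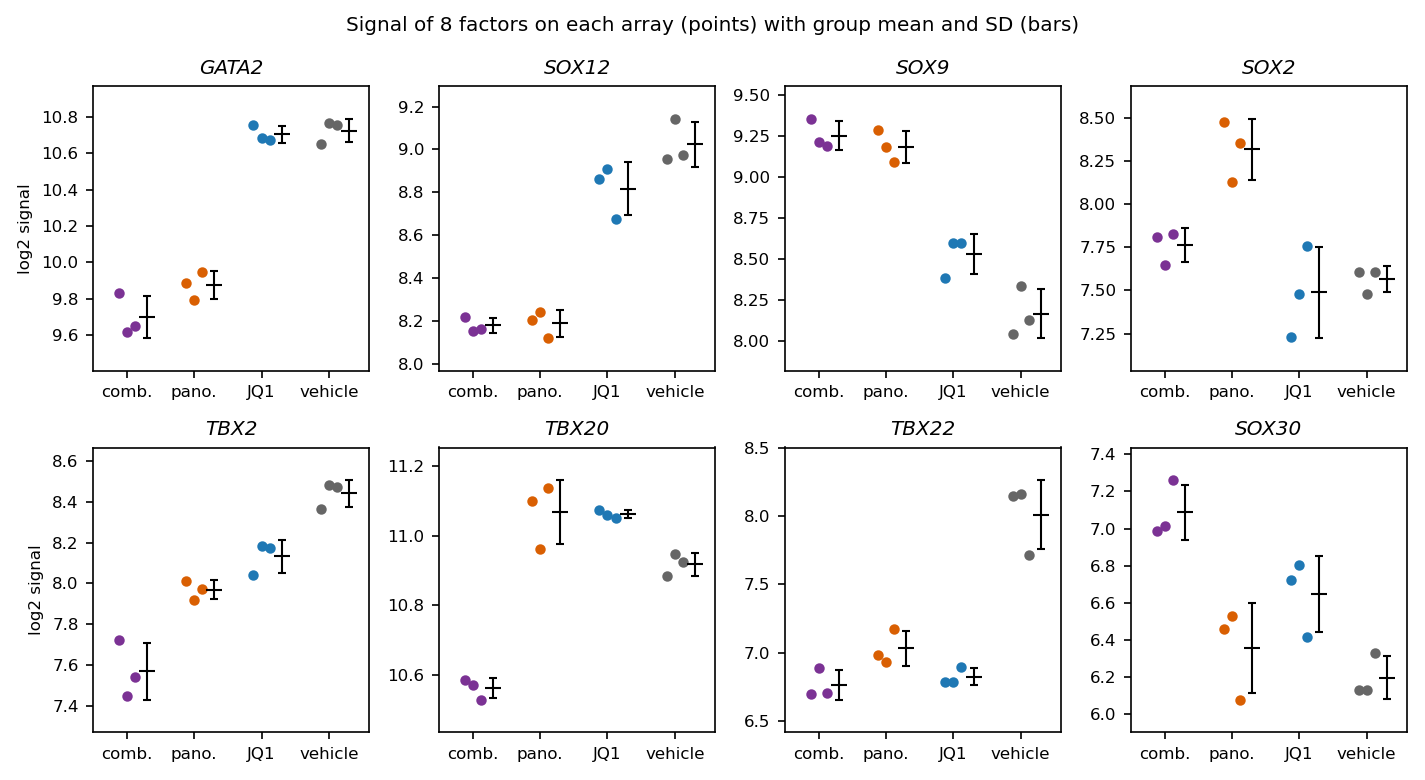
Log2 signal (y axes, each panel on its own scale that does not start at 0) of 8 factors on every array, grouped as combination, panobinostat, JQ1 and vehicle on the x axis, with points for arrays and bars for the group mean and SD of 3 arrays. GATA2, SOX12 and SOX9 split by whether panobinostat was present, TBX20 has its 3 combination arrays apart at 10.53 to 10.59, and TBX22 has its vehicle arrays apart at 7.72 to 8.16.

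Among the SOX genes SOX9, a group E factor that specifies neural crest and cartilage cells, rose most. SOX9 read 9.36, 9.21 and 9.19 with the combination, 9.29, 9.18 and 9.09 with panobinostat and 8.38, 8.60 and 8.60 with JQ1, against 8.04, 8.33 and 8.12 with vehicle. Every treated array lay above every vehicle array, and every combination and panobinostat array lay above every JQ1 array. The rise was 1.09 ± 0.10 with the combination (adjusted p = 3.38e-06), 1.02 ± 0.10 with panobinostat alone (adjusted p = 1.65e-05) and 0.36 ± 0.10 with JQ1 alone (adjusted p = 0.0221), that is 2.12-fold, 2.03-fold and 1.28-fold. The JQ1 call on SOX9 was lost when any 1 of JQ1 replicates 2 and 3 or vehicle replicates 1 and 3 was left out (log2 0.30 to 0.34, adjusted p 0.0725 to 0.0827). The other group E genes, SOX10 of Schwann and pigment cells and SOX8, were not called against vehicle, at 0.17 ± 0.07 and 0.21 ± 0.09 with the combination. SOX10 differed between the combination and JQ1, by 0.33 ± 0.07 (adjusted p = 0.00629).

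The group C genes among the chosen factors, SOX12 and SOX4, which act in neuronal progenitors, moved apart. SOX12 read 8.22, 8.15 and 8.16 with the combination, 8.20, 8.24 and 8.12 with panobinostat and 8.86, 8.91 and 8.68 with JQ1, against 8.96, 9.14 and 8.97 with vehicle. All combination and panobinostat arrays lay below all JQ1 arrays, which in turn lay below the vehicle arrays. SOX12 fell by 0.84 ± 0.08 with the combination (adjusted p = 5.8e-06) and by 0.83 ± 0.08 with panobinostat (adjusted p = 1.93e-05), that is 1.80-fold and 1.78-fold, and differed by -0.21 ± 0.08 with JQ1 (adjusted p = 0.106). A dimmer second cluster named SOX12, with a mean of 7.28, differed by -0.21 with the combination and -0.22 with panobinostat and was not called in limma (adjusted p = 0.274 and 0.265 over all clusters).

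SOX4 had a mean signal of 11.46 over the 12 arrays. SOX4 read 11.51, 11.34 and 11.39 with the combination, 11.60, 11.59 and 11.54 with panobinostat and 11.49, 11.62 and 11.58 with JQ1, against 11.27, 11.26 and 11.34 with vehicle. With either single compound its arrays lay above all vehicle arrays, and with the combination they overlapped them. The rise was 0.29 ± 0.07 with panobinostat (adjusted p = 0.00626) and 0.28 ± 0.07 with JQ1 (adjusted p = 0.0133), and the difference with the combination was 0.12 ± 0.07 (adjusted p = 0.179). Its interaction, -0.44 ± 0.10, did not pass the test (adjusted p = 0.0589). The JQ1 call on SOX4 was lost when JQ1 replicate 2 was left out (log2 0.25, adjusted p 0.058).

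SOX2, the group B1 factor of neural progenitors and pluripotent cells, was higher with panobinostat alone. SOX2 read 7.81, 7.65 and 7.83 with the combination, 8.47, 8.13 and 8.35 with panobinostat and 7.23, 7.48 and 7.76 with JQ1, against 7.61, 7.48 and 7.61 with vehicle. The 3 panobinostat arrays lay above all 9 others, and the JQ1 arrays had the widest spread. With panobinostat SOX2 rose by 0.75 ± 0.13 (adjusted p = 0.00089), 1.69-fold, and with the combination it differed from vehicle by 0.20 ± 0.13 (adjusted p = 0.271). The combination was below panobinostat by 0.56, a log2 difference of -0.56 ± 0.13 (adjusted p = 0.0132), and this call was lost when any 1 of combination replicate 2 or panobinostat replicate 1 was left out (log2 -0.50 to -0.48, adjusted p 0.0524 to 0.0565). SOX1 and SOX3, the other B1 genes, were not called against vehicle, with the dim SOX3 lower with panobinostat than with JQ1, at -0.40 ± 0.10 (adjusted p = 0.0157), a call lost when any 1 of panobinostat replicate 2 or JQ1 replicate 1 was left out (log2 -0.36 to -0.33, adjusted p 0.0625 to 0.0647). The group B2 genes SOX14 and SOX21 and the group F genes of vessel and endoderm, SOX7, SOX17 and SOX18, were not called in any comparison with vehicle.

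Group D holds SOX5, SOX6 and SOX13, which lack an activation domain of their own and bend DNA beside other SOX factors. SOX5 read 6.999, 7.07 and 7.19 with the combination, 7.67, 7.55 and 7.93 with panobinostat and 7.20, 7.07 and 7.24 with JQ1, against 7.54, 7.22 and 7.42 with vehicle. The panobinostat arrays lay above all others and the combination arrays below all vehicle arrays. SOX5 rose by 0.33 ± 0.11 with panobinostat (adjusted p = 0.0443) and fell by 0.31 ± 0.11 with the combination (adjusted p = 0.0457), and the combination differed from panobinostat by -0.63 ± 0.11 (adjusted p = 0.00282). The panobinostat call was lost when any 1 of combination replicates 1, 2 and 3, panobinostat replicates 1 and 3, JQ1 replicates 1, 2 and 3 or vehicle replicates 2 and 3 was left out (log2 0.22 to 0.35, adjusted p 0.0501 to 0.164), and the combination call when any 1 of combination replicates 1 and 2, panobinostat replicate 1, JQ1 replicates 1, 2 and 3 or vehicle replicates 1 and 3 was left out (log2 -0.31 to -0.23, adjusted p 0.0522 to 0.16), whereas the difference between combination and panobinostat was called under each of these omissions.

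SOX13 read 6.97, 7.16 and 7.31 with the combination, 7.03, 6.83 and 7.02 with panobinostat and 6.83, 6.54 and 6.80 with JQ1, against 6.51, 6.66 and 6.39 with vehicle. Its combination arrays lay above all JQ1 and vehicle arrays. It rose by 0.63 ± 0.11 with the combination (adjusted p = 0.000826) and by 0.44 ± 0.11 with panobinostat (adjusted p = 0.0117), the second call being lost when vehicle replicate 3 was left out (log2 0.37, adjusted p 0.0504). SOX6 differed by -0.16 ± 0.10 with the combination and was not called.

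SOX30, a factor of male germ cells, was the 1 gene of the 77 that was higher with the combination than in each of the other 3 groups. SOX30 read 6.99, 7.02 and 7.26 with the combination, 6.46, 6.53 and 6.08 with panobinostat and 6.72, 6.80 and 6.41 with JQ1, against 6.13, 6.13 and 6.33 with vehicle. All combination arrays lay above all others. It rose by 0.89 ± 0.14 with the combination (adjusted p = 0.000253), 1.85-fold, and by 0.45 ± 0.14 with JQ1 (adjusted p = 0.0418), and differed by 0.16 ± 0.14 with panobinostat (adjusted p = 0.44). Its mean signal was 6.57, below the median gene, and its JQ1 call was lost when any 1 of combination replicates 1 and 2, JQ1 replicates 1 and 2 or vehicle replicates 1, 2 and 3 was left out (log2 0.37 to 0.52, adjusted p 0.0504 to 0.148). SOX15 was not called.

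Of the TBX genes, TBX2 fell stepwise. TBX2 encodes a repressor of cell cycle inhibitor genes. TBX2 read 7.72, 7.45 and 7.54 with the combination, 8.01, 7.92 and 7.97 with panobinostat and 8.04, 8.19 and 8.18 with JQ1, against 8.37, 8.48 and 8.47 with vehicle. The groups did not overlap in any pair, with the combination lowest, then panobinostat, then JQ1, then vehicle. TBX2 fell by 0.87 ± 0.08 with the combination (adjusted p = 5.04e-06), 1.83-fold, by 0.47 ± 0.08 with panobinostat (adjusted p = 0.000958) and by 0.31 ± 0.08 with JQ1 (adjusted p = 0.0215). The combination was also below panobinostat, at -0.40 ± 0.08 (adjusted p = 0.00679), and below JQ1, at -0.56 ± 0.08 (adjusted p = 0.000371). Panobinostat against JQ1 was not called, at -0.16 ± 0.08 (adjusted p = 0.175). The change with the combination minus the sum of the single ones was -0.09 ± 0.11 (adjusted p = 0.799). The JQ1 call on TBX2 was lost when any 1 of JQ1 replicate 1 or vehicle replicates 2 and 3 was left out (log2 -0.29 to -0.26, adjusted p 0.071 to 0.0883).

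TBX20, known for heart and motor neuron development, had a mean signal of 10.90 and fell with the combination alone. TBX20 read 10.59, 10.57 and 10.53 with the combination, 11.10, 10.96 and 11.14 with panobinostat and 11.07, 11.06 and 11.05 with JQ1, against 10.88, 10.95 and 10.93 with vehicle. The JQ1 and panobinostat arrays lay above all vehicle arrays and the combination arrays below all others. TBX20 fell by 0.36 ± 0.06 with the combination (adjusted p = 0.000732), while the differences with panobinostat, 0.15 ± 0.06, and JQ1, 0.14 ± 0.06, did not pass the test (adjusted p = 0.106 and 0.155). The combination was below panobinostat by a log2 difference of -0.50 ± 0.06 (adjusted p = 0.000412) and below JQ1 by -0.50 ± 0.06 (adjusted p = 0.000163).

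TBX22, a gene of palate development, fell with every treatment. TBX22 read 6.70, 6.89 and 6.71 with the combination, 6.98, 6.94 and 7.17 with panobinostat and 6.79, 6.79 and 6.90 with JQ1, against 8.15, 8.16 and 7.72 with vehicle. All treated arrays lay below all vehicle arrays and below the median gene's signal of 7.24. The fall was 2.37-fold with the combination (-1.25 ± 0.12, adjusted p = 5.68e-06), 1.97-fold with panobinostat (-0.98 ± 0.12, adjusted p = 9.01e-05) and 2.27-fold with JQ1 (-1.18 ± 0.12, adjusted p = 6.25e-05).

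TBX19, which switches on pro-opiomelanocortin in the pituitary, rose with every treatment, by 0.57 ± 0.09 with the combination (adjusted p = 0.000396), by 0.35 ± 0.09 with panobinostat alone (adjusted p = 0.014) and by 0.49 ± 0.09 with JQ1 alone (adjusted p = 0.00395). The treated arrays of TBX19 ran from 7.32 to 7.81 and the vehicle arrays from 6.90 to 7.05, without overlap. TBX19 was no longer called with panobinostat when vehicle replicate 2 was left out (log2 0.30, adjusted p 0.0564). TBX18, a factor of the epicardium and sinoatrial node, rose with the panobinostat-containing treatments. TBX18 read 6.15, 6.02 and 6.08 with the combination, 6.15, 5.97 and 6.27 with panobinostat and 5.52, 5.71 and 5.67 with JQ1, against 5.59, 5.56 and 5.58 with vehicle. All combination and panobinostat arrays lay above the rest. The rise was 0.50 ± 0.08 with the combination (adjusted p = 0.000447) and 0.56 ± 0.08 with panobinostat (adjusted p = 0.000404), although TBX18 has a low signal with a mean of 5.86.

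TBX6, a regulator of paraxial mesoderm, fell with JQ1 by 0.52 ± 0.10 (adjusted p = 0.00332) and differed by -0.19 ± 0.10 with the combination and -0.05 ± 0.10 with panobinostat, neither of which passed the test. TBX4, a hindlimb and lung factor, rose with panobinostat by 0.33 ± 0.10 (adjusted p = 0.0257), a call lost when any 1 of panobinostat replicates 1 and 2 or vehicle replicates 1 and 2 was left out (log2 0.25 to 0.33, adjusted p 0.0584 to 0.0982). TBX1, the pharyngeal arch factor, and TBX21, the T helper cell factor, were not called, at -0.07 and 0.17 with the combination, and neither were TBX5, TBX10 and TBX15.

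Among the FOX genes the FOXO factors, which drive arrest, stress resistance and cell death genes when growth factor signalling is low, did not move together. FOXO3 read 7.57, 7.78 and 8.04 with the combination, 8.41, 8.25 and 8.35 with panobinostat and 8.09, 8.07 and 7.88 with JQ1, against 8.42, 8.57 and 8.03 with vehicle. The combination arrays lay below all panobinostat arrays and overlapped the vehicle arrays at 8.03 and 8.04. FOXO3 fell by 0.55 ± 0.14 with the combination (adjusted p = 0.00967), 1.46-fold, and differed by 0.00 ± 0.14 with panobinostat and -0.33 ± 0.14 with JQ1 (adjusted p = 0.998 and 0.153). The dimmer second FOXO3 cluster differed by -0.16 with the combination and was not called in limma (adjusted p = 0.312 over all clusters). The combination was below panobinostat, at -0.55 ± 0.14 (adjusted p = 0.0259), a call lost when any 1 of combination replicates 1 and 2 or panobinostat replicates 1 and 3 was left out (log2 -0.54 to -0.43, adjusted p 0.0676 to 0.0974).

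FOXO1 read 7.36, 7.14 and 7.28 with the combination, 7.29, 7.10 and 6.96 with panobinostat and 6.88, 7.19 and 6.94 with JQ1, against 6.73, 7.02 and 6.85 with vehicle. Its combination arrays lay above all vehicle arrays and overlapped both single treatments. It rose by 0.40 ± 0.11 with the combination (adjusted p = 0.0162), a call lost when any 1 of combination replicate 1 or vehicle replicate 1 was left out (log2 0.33 to 0.34, adjusted p 0.0626 to 0.0647). FOXO4 rose by 0.36 ± 0.10 with panobinostat (adjusted p = 0.0168), a call lost when any 1 of vehicle replicates 1 and 2 was left out (log2 0.30 to 0.33, adjusted p 0.0577 to 0.0642). FOXO4 was higher with panobinostat than with JQ1, by 0.59 ± 0.10 (adjusted p = 0.00126), and its 3 panobinostat arrays (8.04 to 8.11) lay above all JQ1 arrays (7.37 to 7.64).

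The FOXP genes encode repressors that act in neurons, lung and lymphocytes. FOXP4 read 8.98, 8.97 and 8.87 with the combination, 8.99, 8.86 and 8.84 with panobinostat and 8.85, 8.95 and 8.77 with JQ1, against 8.44, 8.46 and 8.57 with vehicle. All treated arrays lay above all vehicle arrays. The combination raised FOXP4 by 0.46 ± 0.07 (adjusted p = 0.000404), panobinostat by 0.41 ± 0.07 (adjusted p = 0.00153) and JQ1 by 0.37 ± 0.07 (adjusted p = 0.00518). FOXP1 went the other way with the JQ1-containing treatments: it read 8.02, 8.04 and 8.23 with the combination, 8.52, 8.51 and 8.64 with panobinostat and 8.18, 8.18 and 7.96 with JQ1, against 8.45, 8.32 and 8.54 with vehicle. All combination and JQ1 arrays lay below all vehicle arrays, and the panobinostat arrays overlapped those. FOXP1 fell by 0.34 ± 0.09 with the combination (adjusted p = 0.0103) and by 0.33 ± 0.09 with JQ1 (adjusted p = 0.0278), and differed by 0.12 ± 0.09 with panobinostat (adjusted p = 0.366). The JQ1 call was lost when any 1 of JQ1 replicate 3 or vehicle replicates 1 and 3 was left out (log2 -0.32 to -0.25, adjusted p 0.0639 to 0.112). FOXP2, the factor linked to speech, and FOXP3 of regulatory T cells were not called, at 0.04 and -0.07 with the combination.

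FOXN3, a checkpoint suppressor, had the same order of group means as FOXP1. FOXN3 read 8.03, 8.06 and 8.03 with the combination, 8.44, 8.51 and 8.38 with panobinostat and 8.19, 8.14 and 8.06 with JQ1, against 8.32, 8.36 and 8.38 with vehicle. All combination and JQ1 arrays lay below all vehicle arrays and all panobinostat arrays narrowly above them. It fell by 0.31 ± 0.06 with the combination (adjusted p = 0.00191) and by 0.22 ± 0.06 with JQ1 (adjusted p = 0.0319), while the panobinostat difference of 0.10 ± 0.06 did not pass the test (adjusted p = 0.296). The JQ1 call was lost when any 1 of JQ1 replicates 2 and 3 or vehicle replicates 2 and 3 was left out (log2 -0.22 to -0.18, adjusted p 0.0807 to 0.124). FOXN4, a factor of retinal progenitors, fell by 0.43 ± 0.14 with the combination (adjusted p = 0.0264), a call lost when any 1 of combination replicates 1 and 3 or vehicle replicates 1 and 2 was left out (log2 -0.41 to -0.34, adjusted p 0.0701 to 0.102).

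FOXJ2 had the largest fall of any FOX gene. FOXJ2 read 8.08, 8.11 and 7.78 with the combination, 8.22, 8.28 and 8.35 with panobinostat and 8.14, 8.33 and 8.18 with JQ1, against 8.79, 8.61 and 8.68 with vehicle. All treated arrays lay below all vehicle arrays, and all combination arrays below both single treatments. It fell by 0.70 ± 0.10 with the combination (adjusted p = 0.000109), 1.62-fold, by 0.41 ± 0.10 with panobinostat (adjusted p = 0.00736) and by 0.48 ± 0.10 with JQ1 (adjusted p = 0.0051). The panobinostat call was lost when vehicle replicate 1 and panobinostat replicate 1 were left out together (limma adjusted p = 0.0717). The combination did not pass the test against panobinostat (-0.29 ± 0.10, adjusted p = 0.0647) or JQ1 (-0.22 ± 0.10, adjusted p = 0.119). FOXJ1, the master regulator of motile cilia, was not called, at 0.13 ± 0.08 with the combination.

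FOXD4 read 8.92, 9.07 and 9.16 with the combination, 9.06, 9.03 and 8.92 with panobinostat and 8.51, 8.57 and 8.56 with JQ1, against 8.63, 8.42 and 8.58 with vehicle. All combination and panobinostat arrays lay above the JQ1 and vehicle arrays. FOXD4 rose by 0.50 ± 0.08 with the combination (adjusted p = 0.000379) and by 0.46 ± 0.08 with panobinostat (adjusted p = 0.00124). Its near-identical copy FOXD4L1 rose by 0.47 ± 0.11 and 0.32 ± 0.11 (adjusted p = 0.00473 and 0.0475), the panobinostat call being lost when any 1 of combination replicate 1, panobinostat replicates 1 and 2, JQ1 replicates 1, 2 and 3 or vehicle replicates 1, 2 and 3 was left out (log2 0.27 to 0.37, adjusted p 0.0514 to 0.147). The copies FOXD4L5 and FOXD4L6 were not called. Probes of these genes can bind each other's transcripts, so which copy changed is uncertain. FOXD3, a neural crest factor, and FOXD1 of kidney stroma were not called, at 0.17 and -0.12 with the combination. FOXC1 was not analysed here.

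Several factors with signals far above the median gene's were not called against vehicle. FOXJ3, with a mean signal of 10.25, differed by -0.07 ± 0.06 with the combination, -0.05 ± 0.06 with panobinostat and -0.01 ± 0.06 with JQ1. FOXK2 and FOXK1, which repress autophagy genes in fed cells, differed by 0.01 ± 0.06 and -0.17 ± 0.07 with the combination. FOXN2 differed by -0.21 ± 0.08 (adjusted p = 0.0578) with the combination against vehicle, and by -0.28 ± 0.08 against JQ1 (adjusted p = 0.0223), where the call was lost when any 1 of combination replicate 1 or JQ1 replicates 1 and 2 was left out (log2 -0.26 to -0.22, adjusted p 0.0744 to 0.0876). Among the FOX genes outside the D, J, K, N, O and P groups, none was called against vehicle.

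Set directly against each other, the 2 compounds differed in 13 factors, 10 higher and 3 lower with panobinostat, against 23.3% of all genes called in this comparison, 11.6% higher and 11.6% lower. The higher ones were SOX2 (0.83 ± 0.13, adjusted p = 0.000727), SOX9 (0.66 ± 0.10, adjusted p = 0.000491), FOXO4, SOX5 (0.55 ± 0.11, adjusted p = 0.00392), TBX18 (0.50 ± 0.08, adjusted p = 0.00126), TBX6, FOXD4, FOXP1, FOXR1 and FOXN3. GATA2 (-0.83 ± 0.08, adjusted p = 3.05e-05), SOX12 (-0.63 ± 0.08, adjusted p = 0.000214) and SOX3 were lower. For GATA2, SOX12, SOX9, FOXD4, TBX18, FOXO4 and TBX6 the combination was called against JQ1 and not against panobinostat. For FOXP1, FOXN3, SOX2 and SOX5 the combination was called against panobinostat and not against JQ1. FOXR1, at 0.43 ± 0.14 (adjusted p = 0.0493), was called here and in no comparison with vehicle, and its call was lost when any 1 of combination replicates 1 and 3, panobinostat replicates 1 and 3, JQ1 replicates 1, 2 and 3 or vehicle replicate 3 was left out (log2 0.30 to 0.50, adjusted p 0.0587 to 0.175).

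**Figure D4:**
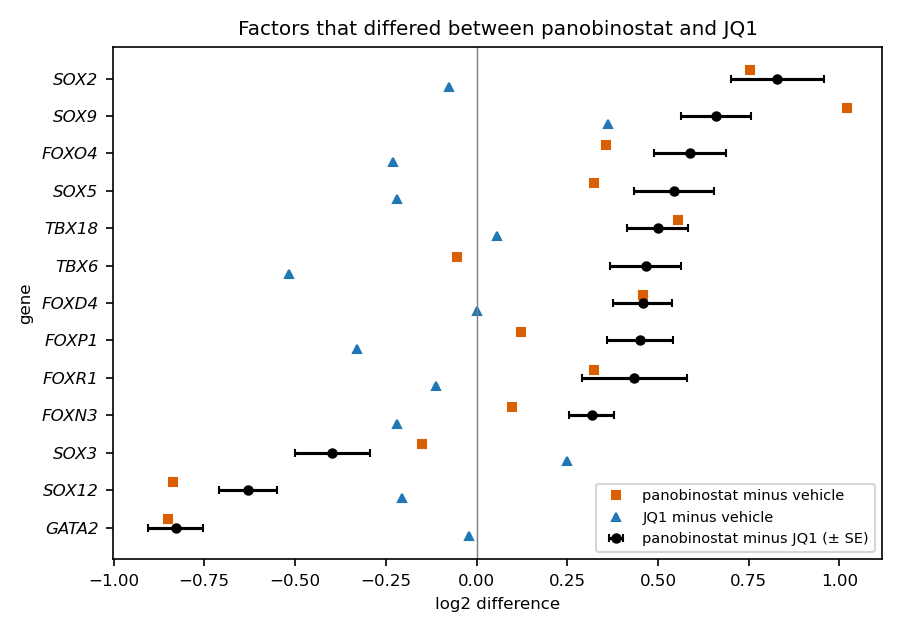
Log2 difference between panobinostat and JQ1 (black circles, bars are the SE) for the 13 factors called in that comparison, with the change from vehicle for panobinostat (squares) and JQ1 (triangles) beside it, all on the x axis. SOX2 has the highest and GATA2 the lowest difference, at 0.83 and -0.83.

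Against JQ1 alone, the combination was higher for 9 factors and lower for 5, with 25.6% of all genes called, 11.7% higher and 13.9% lower. The higher ones were SOX10, described above, SOX9 (0.73 ± 0.10, adjusted p = 0.000215), FOXD4, FOXD4L1, TBX18, SOX30, FOXO4, SOX13 and TBX6, and the lower ones FOXN2, also described above, GATA2 (-1.01 ± 0.08, adjusted p = 4.83e-06), SOX12 (-0.64 ± 0.08, adjusted p = 0.000151), TBX2 and TBX20. Quantile normalization changed this split to 9 higher and 8 lower. Calls of moderate size were lost with some arrays omitted: SOX13 when any 1 of combination replicate 3 or JQ1 replicate 2 was left out (log2 0.33 to 0.34, adjusted p 0.0686 to 0.0714), SOX30 when any 1 of combination replicates 2 and 3 or JQ1 replicates 1 and 3 was left out (log2 0.32 to 0.48, adjusted p 0.058 to 0.136) and TBX6 when any 1 of combination replicates 1, 2 and 3 or JQ1 replicates 2 and 3 was left out (log2 0.26 to 0.35, adjusted p 0.0522 to 0.11).

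Against panobinostat alone, adding JQ1 gave 1 higher factor, SOX30 (0.73 ± 0.14, adjusted p = 0.00442), and 7 lower ones, with 14.7% of all genes called, 6.13% higher and 8.55% lower. The lower ones were SOX5, SOX2, FOXO3, TBX20, FOXP1 (-0.47 ± 0.09, adjusted p = 0.00569), FOXN3 (-0.41 ± 0.06, adjusted p = 0.00145) and TBX2. SOX2 and SOX5 had been higher than vehicle with panobinostat alone.

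The interaction, the log2 change with the combination minus the sum of the single changes, was called for 2 factors, both T-box genes, 1 in each direction, against 0.759% of all genes, 0.309% higher and 0.45% lower. For TBX20 it was -0.65 ± 0.09 (adjusted p = 0.0128): the single differences of 0.15 and 0.14 were positive and the combination's was -0.36. For TBX22 it was 0.92 ± 0.17 (adjusted p = 0.0325): each single compound lowered the signal, and neither was called against the combination. All treated TBX22 arrays lay below the median gene's signal of 7.24. The TBX22 interaction was lost when any 1 of combination replicates 1, 2 and 3, panobinostat replicates 1 and 2, JQ1 replicates 1, 2 and 3 or vehicle replicates 1 and 2 was left out (log2 0.84 to 0.95, adjusted p 0.0564 to 0.0945). The count was 0 higher and 1 lower with arrays centred on their medians and 1 higher and 3 lower after quantile normalization. With adjustment over all clusters neither interaction was called in limma (adjusted p = 0.0805 for TBX20 and 0.117 for TBX22), and 13 factors had an unadjusted p under 0.05. The main limma fit also had 13 such factors, 7 of the 29 at or above the median gene's signal and 6 of the 48 dimmer ones. Of all genes, 1244 of 7442 at or above that signal and 793 of 7442 below it had an unadjusted p under 0.05. For the other 75 factors the interaction was not called, which does not show that the changes added up.

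**Figure D5:**
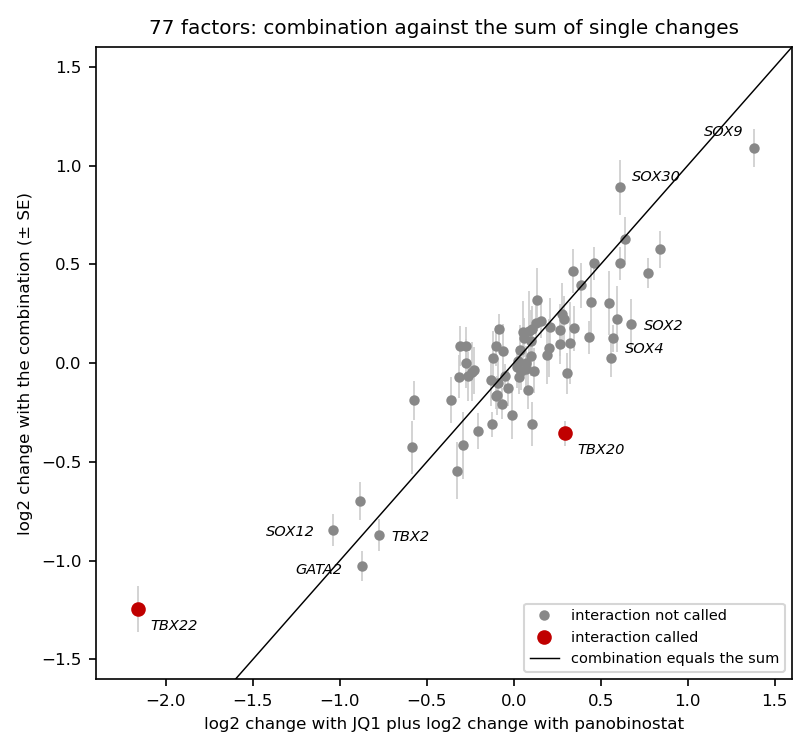
Log2 change from vehicle with the combination (y axis, bars are the SE) against the sum of the log2 changes with JQ1 and panobinostat (x axis) for the 77 factors, with the line where both are equal; all 3 changes share the vehicle arrays, which by itself makes the points rise together. TBX20 lies below the line and TBX22 above it, at interactions of -0.65 and 0.92.

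The 4 relatives that the symbol rule leaves out moved as follows. GATA3 differed by -1.22, -1.04 and 0.28 with the combination, panobinostat and JQ1, beside -1.03, -0.85 and -0.02 for GATA2. TBX3, the closest relative of TBX2, differed by -1.91, -1.39 and -0.20. SOX11, the third group C gene, differed by 0.41, 0.11 and 0.63, and FOXM1, a cell cycle factor, by -0.50, -0.38 and -0.31. TBX3 with JQ1 and SOX11 with panobinostat were not called (adjusted p = 0.0817 and 0.47), and the other 10 differences were.

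Genes around the factors were counted in lists of known regulators, partners and targets. Not all listed genes were measured: 17 of 26 FOXO targets, 10 of 24 FOXO regulators and 9 of 19 corepressors were. The lists were not matched to all genes for signal. Of all genes at or above the median gene's signal, 58.3%, 45.3% and 27.9% were called with the combination, panobinostat and JQ1. Of 17 measured FOXO target genes 9 were higher and 1 lower with the combination, 8 were called with panobinostat and 11 with JQ1, each of them higher. These are 58.8%, 47.1% and 64.7% of the targets, beside 37.7%, 29.3% and 17.6% of all genes called. Their median log2 changes were 0.28, 0.27 and 0.32, beside 0.03, 0.03 and 0.01 for all genes. SESN3, a stress-induced regulator of growth signalling, rose by 1.62 ± 0.08, 1.34 ± 0.08 and 1.43 ± 0.08 with the combination, panobinostat and JQ1, and SESN1 by 0.73 ± 0.18, 0.77 ± 0.18 and 0.82 ± 0.18. BCL6, a repressor, rose by 0.88 ± 0.12, 0.88 ± 0.12 and 0.60 ± 0.12. TXNIP, which binds thioredoxin, rose by 0.82 ± 0.12 with the combination and 0.49 ± 0.12 with JQ1, while INSR was not called. The 1 lower gene, FBXO32, named after its values were seen, fell by 0.74 ± 0.10 with the combination. The FOXO genes themselves were called in 2 of 3 cases with the combination, in opposite directions. Of 10 measured FOXO regulators 5 were higher and 4 lower with the combination, 2 and 4 with panobinostat and 3 and 2 with JQ1, that is 90%, 60% and 50% called beside the same 37.7%, 29.3% and 17.6% of all genes, with medians of 0.26, 0.11 and 0.18. PDPK1, the kinase that activates AKT, rose by 1.05 ± 0.08 with the combination, while USP7, a deubiquitinase, fell by 1.01 ± 0.07 and IRS1, an insulin signalling adaptor, by 0.96 ± 0.12. SIRT1, a deacetylase, rose by 0.95 ± 0.07 with JQ1 and by 0.46 ± 0.07 with the combination and fell by 0.29 ± 0.07 with panobinostat, and AKT1 was not called.

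Of 14 measured GATA cofactors and LIM complex genes 2 were higher and 7 lower with the combination, 1 and 5 with panobinostat and 1 and 3 with JQ1. The called shares were 64.3%, 42.9% and 28.6%, beside 37.7%, 29.3% and 17.6% of all genes, and the medians -0.24, -0.06 and -0.12, beside 0.03, 0.03 and 0.01. LMO1, a LIM adaptor and neuroblastoma susceptibility gene, fell by 1.74 ± 0.12, 0.94 ± 0.12 and 1.43 ± 0.12 with the combination, panobinostat and JQ1, and LMO3 by 0.85 ± 0.11, 0.46 ± 0.11 and 0.87 ± 0.11. LDB1, the scaffold that binds them, fell by 0.82 ± 0.07 with the combination and 0.55 ± 0.07 with panobinostat, and TCF4, an E protein, by 0.89 ± 0.08 and 0.52 ± 0.08. LMO2 was not called. GATA2 was lower with the combination and with panobinostat, as were LMO1, LMO3, LDB1 and TCF4. With JQ1, where LMO1 and LMO3 fell, GATA2 was not called. All 8 adrenergic markers were lower with the combination as well, HAND2 by 1.23 ± 0.07 and PHOX2A by 1.16 ± 0.07. So were 5 of the 8 measured mesenchymal markers, with 0 higher in either set, and 19.5% of all genes. Whether these changes bear on each other was not tested.

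Of 9 measured corepressors 4 were higher and 2 lower with the combination, 2 and 1 with panobinostat, and 1 was called with JQ1, RCOR1, which was higher. That is 66.7%, 33.3% and 11.1% called, beside 37.7%, 29.3% and 17.6% of all genes, with medians of 0.01, -0.01 and 0.01. SIN3A, a scaffold of histone deacetylase complexes, rose by 1.09 ± 0.08 with the combination and 0.82 ± 0.08 with panobinostat, RCOR1 by 0.40 ± 0.06 with the combination and 0.52 ± 0.06 with JQ1, and CTBP1 fell by 0.44 ± 0.08 and 0.50 ± 0.08 with the combination and panobinostat, while CHD4 was not called.

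Of 15 measured POU and PAX partners of SOX factors 3 were higher and 1 lower with the combination, 2 and 1 with panobinostat and 1 and 1 with JQ1. These shares of 26.7%, 20% and 13.3% lay below the 37.7%, 29.3% and 17.6% of all genes, and the medians were 0.15, 0.17 and 0.04. POU4F1, a sensory neuron factor, rose by 0.81 ± 0.09 with the combination and 0.94 ± 0.09 with panobinostat, POU3F1 by 0.85 ± 0.09, 0.47 ± 0.09 and 0.48 ± 0.09 with the combination, panobinostat and JQ1, and PAX6 by 0.44 ± 0.15 with the combination. POU6F1 fell by 0.62 ± 0.08, 0.57 ± 0.08 and 0.38 ± 0.08, and PAX3 was not called.

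Of 10 measured neuronal and glial genes regulated by SOX factors 3 were higher and 1 lower with the combination, while EDNRB and MITF were higher with panobinostat and MITF with JQ1. The shares called, 40%, 20% and 10%, were near or below the 37.7%, 29.3% and 17.6% of all genes, with medians of -0.05, 0.13 and 0.01. EDNRB, the endothelin receptor of neural crest cells, rose by 1.59 ± 0.12 with panobinostat and 0.94 ± 0.12 with the combination and differed by -0.09 ± 0.12 with JQ1. MITF, the pigment cell regulator, rose by 0.70 ± 0.10, 0.67 ± 0.10 and 0.33 ± 0.10 with the combination, panobinostat and JQ1. ERBB3, a glial receptor, rose by 0.34 ± 0.09 and STMN2, a neuronal tubulin-binding gene, fell by 0.23 ± 0.06 with the combination, and RET was not called. Of 6 measured β-catenin and TCF partners 1 was higher and 2 lower with the combination, 1 and 1 with panobinostat and 1 and 2 with JQ1, shares of 50%, 33.3% and 50% beside 37.7%, 29.3% and 17.6% of all genes, with medians of -0.14, 0.16 and -0.11. LGR5, a Wnt pathway receptor, fell by 0.78 ± 0.07 with the combination and 0.62 ± 0.07 with JQ1, BCL9, a β-catenin coactivator, by 0.56 ± 0.06, 0.35 ± 0.06 and 0.54 ± 0.06 with the combination, panobinostat and JQ1, and its partner PYGO2 rose by 0.64 ± 0.07, 0.26 ± 0.07 and 0.39 ± 0.07.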

How the data were processed

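Total RNA of SK-N-BE(2) cells was labelled with biotin and hybridised to Affymetrix Human Gene 2.0 ST arrays, per the labels. The authors' deposited table holds 1 value for each of 53617 transcript clusters on 12 arrays, taken here as log2 signal because the deposited values span a log range without zeros; the log base is not stated. The submitters' processing notes name MAS5 and affy, while background correction, normalization and build are not given there or in the labels. The values were not normalized again and no dim gene was removed. How far signals lie above background cannot be read from them, and 12 arrays limit the precision.

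The platform annotation names 16098 clusters with 1 gene symbol, 0 with several and leaves 37519 without one. Each symbol was represented by its brightest cluster on average, which gave 14884 genes, and 4 of the 77 factors (FOXD1, FOXD4L6, FOXO3 and SOX12) have more than 1 cluster. Group means were fitted with limma 3.58.1 in R 4.3.3 (functions lmFit and eBayes, all 12 arrays together, 8 residual and 3.457 prior degrees of freedom) and compared by two-sided contrasts, with Benjamini-Hochberg adjustment over the 14884 genes in each of 7 comparisons, and genes with an adjusted p under 0.05 were called. With 3 arrays on each side, exact permutation cannot reach a two-sided p below 0.1 and was not used. Comparisons with vehicle share its 3 arrays.

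The factors and the lists of related genes were chosen with earlier results of these data known. Factors are named where called (at most 10 per direction against vehicle and 5 per direction elsewhere, with the rest listed), where among the 8 with the highest mean signal, or for known roles in neural crest, neuroblastoma or growth control. Of each list up to 4 called genes with the largest change against vehicle and 1 gene not called are named. Alternatives were median centring, quantile normalization, a filter at the 40th percentile of signal, the replicate number as a block, the mean of a gene's clusters, the arrays of the compared groups only, an intensity trend, adjustment over all clusters and leaving out each array. Replicate numbers in the labels are shared by the groups, and were checked for pairing. Upstream sequences are those of RefSeq on GRCh38.p14.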

Additional observations from a re-analysis of the deposited data

Results flagged for a closer look

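TBX20 and TBX22 stand out because the change with both compounds differed from the sum of the changes with each, by a test of that difference in limma. For TBX20 the log2 difference was -0.647 (adjusted p = 0.0128), and for TBX22 it was 0.917 (adjusted p = 0.0325), with 3 arrays in each group. With adjustment over all clusters of the array neither passed the threshold (adjusted p = 0.0805 and 0.117), and the TBX22 value was also lost when any 1 of 10 of the 12 arrays was left out. All treated TBX22 arrays lay below the median gene's signal.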

How the results depend on the processing

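With 3 arrays per group, no detection calls and no background estimate, changes of dim factors are the least certain, and the probe-level steps before deposit are unknown. No factor's call changed sign under any of 8 settings and 12 single-array omissions, or with the 2 arrays farthest from their groups left out together, which was chosen after seeing the data. Of 85 called pairs of factor and comparison 59 were called under every setting and 26 were lost under at least 1, and the cause was not tested. The JQ1 count of 11 factors became 5 with adjustment over all clusters, which tests more features, 7 with both farthest arrays left out, and 7 to 11 with single arrays omitted. The interaction count of 2 became 1 with median centring and 4 after quantile normalization. It became 0 with adjustment over all clusters (limma), where 13 factors had an unadjusted p under 0.05. The main fit's count of such factors, also 13, is set beside all genes above. With both farthest arrays left out the interaction count was 1, and with single arrays omitted 1 to 2. Over the 18 same-numbered pairs the correlation of deviations from the group means was -0.693 to 0.236 and exceeded 0.1 in 4. The lowest was that of vehicle replicate 1 with panobinostat replicate 1. With 3 arrays per group, these values cannot tell whether same-numbered arrays came from paired cultures. With the replicate block the counts were 20 for the combination, 16 for panobinostat, 8 for JQ1, 13 for the combination against JQ1, 7 against panobinostat, 12 for panobinostat against JQ1 and 1 for the interaction.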
